A study of Mus musculus with 6 samples.

Results

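The 34 genes described here encode the enzymes that feed and turn the tricarboxylic acid (TCA) cycle and those that break down branched-chain amino acids and ketone bodies in mitochondria. They were chosen by gene symbol: all probe sets annotated with a single symbol from the list were taken, 74 of the 45101 probe sets on the array. A probe set is a group of array probes for 1 transcript. All 34 genes were found, among 18193 genes named by a single symbol. After removal of the dimmest 40% of probe sets, 68 of the 74 remained, and every gene kept at least 1 of them. The 6 left out belong to Dld, Sucla2 (2), Auh (2) and Pcca. Each gene was represented by its brightest probe set over the 6 hearts.

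RNA came from the apex of the heart of male mice aged 6 to 7 weeks, with 1 animal and 1 Affymetrix array per sample. All 6 mice were Fog2flox/delta, with a floxed and a deleted copy of Fog2, the gene listed as Zfpm2, which encodes a partner protein of GATA transcription factors. In 3 mice an alpha MHC Cre transgene was present, which drives Cre recombinase from the promoter of the cardiomyocyte gene Myh6. The other 3 had no Cre and were therefore not wild type. No group had Cre without the floxed allele, so what Cre itself does and what the deletion does cannot be told apart. Values are log2 signals, and a negative difference means a lower signal in the mice with Cre.

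Pyruvate dehydrogenase is the multi-enzyme complex that turns pyruvate into acetyl-CoA, the fuel of the TCA cycle. Leucine, valine and isoleucine lose their amino group in a shared transamination and are then oxidised by a complex of the same design, the branched-chain alpha-keto acid dehydrogenase. After that step each carbon skeleton has its own route to acetyl-CoA, acetoacetate or succinyl-CoA. The heart normally runs the TCA cycle mainly on fatty acids and also oxidises ketone bodies, lactate and branched-chain amino acids.

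In hearts with Cre, 5 of the 34 genes fell and 0 rose, and all 5 belong to branched-chain amino acid breakdown: Bckdha, Bckdhb, Dbt, Mccc2 and Pcca. They were lower by 0.48 to 0.72 on the log2 scale, that is, by 28.1% to 39.1%. Calls are limma adjusted p-values under 0.05 over all 27022 tested probe sets. By the same rule 2.04% of the 13062 tested genes were lower and 4.2% higher. Counted as probe sets, 9 of 68 were lower (13.2%), against 1.79% of all tested, and none was higher, against 3.43%. Among the member probe sets left out as dim, a Sucla2 probe set was higher with Cre without overlap. That of Pcca was lower without overlap, and the groups overlapped in the others. None of the 17 genes of pyruvate dehydrogenase and the TCA cycle was called through its brightest probe set (limma; 3 were lower at an unadjusted p under 0.05), against 5 of the 16 genes of branched-chain breakdown. The difference between these groups of genes was not tested.

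Small differences ran through most of the list. The difference was below 0 for 31 of 34 genes, against 52.3% of all tested genes, with a median of -0.23 against -0.01. In 22 genes every heart with Cre lay below every heart without Cre, which held for 12.9% of all genes, and in 0 genes every heart with Cre lay above, against 13.2%. The median was -0.12 for pyruvate dehydrogenase and the TCA cycle together and -0.39 for branched-chain breakdown. The members were also brighter, with a median signal without Cre of 11.53 against 7.60 over all tested genes. The shares of all tested genes given above were not matched for level.

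Most of the 5 calls were lost when any heart other than aMHC_Cre 1 was left out. The differences of the 5 genes stayed between -0.88 and -0.42 in the 6 fits that left out 1 heart each. Such fits have fewer arrays, and calls over all probe sets also dropped, from 1412 to between 600 and 1075. Leaving out aMHC_Cre 2 left 0 of the 5 genes called, leaving out no_Cre 1, no_Cre 2, no_Cre 3 or aMHC_Cre 3 left only Bckdha, and leaving out aMHC_Cre 1 left 4. With all probe sets tested, dim ones included, 0 were called, at adjusted p of 0.0754 to 0.223 (limma), and with trended, robust variances 14 were.

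**Figure D1:**
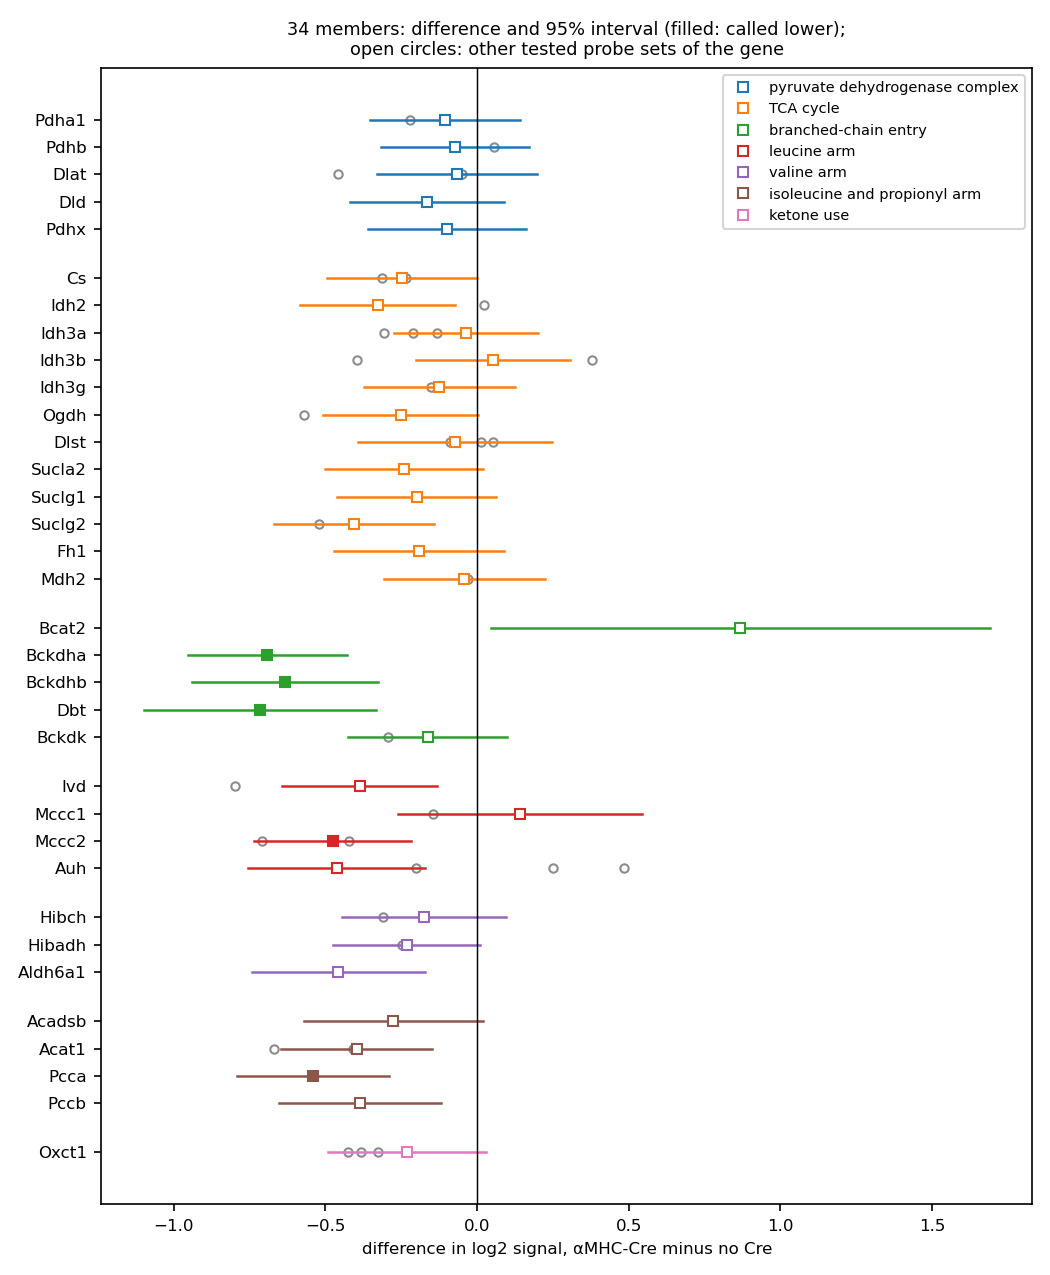
Difference in log2 signal (αMHC-Cre minus no Cre, horizontal axis) for each of the 34 genes, grouped by pathway step. Squares are the brightest probe set with its 95% interval from limma, filled squares are the 5 genes called lower, and open circles are other tested probe sets of the same gene. Only Idh3b, Bcat2 and Mccc1 have squares to the right of 0.

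The check of the deleted gene did not settle the labels by itself. The brighter of the 2 probe sets of Zfpm2 went from 8.88 ± 0.07 (SD, n = 3) to 10.56 ± 0.13 with Cre (limma adjusted p 0.000143), and the dimmer one from 6.46 ± 0.16 to 5.58 ± 0.10 (0.00519). The transcript region behind either probe set is not known here. Markers matched heart muscle, with a mean log2 signal of 13.35 to 13.41 over 10 cardiomyocyte genes in every heart. The array maxima were 13.97 to 14.00.

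The pyruvate dehydrogenase complex did not pass the test in any of its 5 genes (limma; 0 also at an unadjusted p under 0.05), with differences of -0.16 to -0.07 and a median of -0.10. Dld, the dihydrolipoamide dehydrogenase that the pyruvate, oxoglutarate and branched-chain complexes all share, measured 11.65, 11.56 and 11.68 without Cre against 11.55, 11.39 and 11.46 with Cre. Its groups did not overlap, but the difference of -0.16 ± 0.11 (SE) had a 95% interval of -0.42 to 0.09. Pdha1, the X-linked alpha subunit of the decarboxylase, measured 12.98, 12.98 and 13.01 without Cre against 12.97, 12.86 and 12.81 with Cre, a difference of -0.11 ± 0.11. Its other probe set differed by -0.22 ± 0.11 (adjusted p 0.36).

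For Pdhb, the beta subunit, the brighter probe set differed by -0.07 ± 0.11 (SE) and the dimmer one by 0.06 ± 0.19. Dlat, the acetyltransferase core, had 3 probe sets. The brightest differed by -0.07 ± 0.12 and the next by -0.05 ± 0.12. The dimmest measured 11.02, 10.79 and 10.96 without Cre against 10.50, 10.32 and 10.57 with Cre, without overlap, and differed by -0.46 ± 0.13 (limma adjusted p 0.0745). Pdhx, which anchors the shared dehydrogenase to that core, differed by -0.10 ± 0.12.

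Of the 12 TCA cycle genes 0 passed through the brightest probe set (limma; 3 were lower at an unadjusted p under 0.05), and 11 were below 0, with a median of -0.19. The largest difference was that of Suclg2, the subunit that makes succinyl-CoA ligase specific for guanine nucleotides. It measured 11.33, 11.35 and 11.51 without Cre against 11.09, 10.92 and 10.97 with Cre, a difference of -0.40 ± 0.12 (SE, limma adjusted p 0.0896). Its other probe set differed by -0.52 ± 0.18 (adjusted p 0.15). Sucla2, the alternative subunit for adenine nucleotides, differed by -0.24 ± 0.11, and Suclg1, the subunit that pairs with either, by -0.20 ± 0.12.

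Idh2, the NADP-dependent isocitrate dehydrogenase of mitochondria, measured 12.76, 12.79 and 12.87 without Cre against 12.58, 12.42 and 12.43 with Cre. The groups did not overlap, with a difference of -0.33 ± 0.11 (SE, adjusted p 0.158). Its dim probe set differed by 0.02 ± 0.21. Cs, citrate synthase, which opens the cycle, was lower without overlap in all 3 probe sets, with differences of -0.31, -0.25 and -0.23 (adjusted p 0.202 to 0.308).

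Ogdh, the decarboxylase of the oxoglutarate complex, was the gene of the cycle with a called probe set, though not its brightest. That probe set (1445632_at) measured 7.37, 7.39 and 7.20 without Cre against 6.94, 6.56 and 6.75 with Cre, and fell by 0.57 ± 0.13 (SE, limma adjusted p 0.0436). The groups did not overlap, and the call was kept in 1 of 6 fits that left out a heart. The brightest probe set of Ogdh measured 12.24, 12.40 and 12.43 without Cre against 12.13, 12.07 and 12.11 with Cre, a difference of -0.25 ± 0.11 (adjusted p 0.288). Dlst, the succinyltransferase core of the same complex, differed by -0.09 to 0.05 over 4 probe sets.

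The 3 subunits of the NAD-dependent isocitrate dehydrogenase did not all differ in the same direction. Idh3a differed by -0.04 ± 0.11 (SE) through its brightest probe set and by -0.13, -0.21 and -0.31 through the others, and Idh3g by -0.12 and -0.15. The probe sets of Idh3b had differences of opposite sign, none of them called. Its brightest measured 12.38, 12.39 and 12.44 without Cre against 12.50, 12.35 and 12.53 with Cre, which overlap. A dimmer one read 8.60, 8.71 and 8.89 against 9.18, 8.87 and 9.28, a difference of 0.38 ± 0.15 (adjusted p 0.207). The dimmest read 8.55, 8.47 and 8.46 against 8.09, 8.06 and 8.14, a difference of -0.40 ± 0.11 (0.0754). Fumarase, encoded by Fh1, differed by -0.19 ± 0.12, and malate dehydrogenase, encoded by Mdh2, by -0.04 ± 0.12 and, in its other probe set, -0.03 ± 0.11.

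Taken through the brightest probe set of each gene, the 3 lowest differences of the list were those of the branched-chain keto acid dehydrogenase. Bckdha, the alpha subunit of its decarboxylase (probe set 1416647_at), measured 10.71, 10.80 and 10.68 without Cre against 10.15, 9.93 and 10.04 with Cre. The groups were clearly apart, and the gene fell by 0.69 ± 0.12 (SE, limma adjusted p 0.0101). Bckdhb, the beta subunit (1427153_at), measured 10.25, 10.43 and 10.35 without Cre against 9.94, 9.62 and 9.56 with Cre, again without overlap. It fell by 0.63 ± 0.14 (adjusted p 0.0296).

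Dbt, the acyltransferase core of that complex (1449118_at), measured 9.48, 9.85 and 9.73 without Cre against 9.31, 8.79 and 8.82 with Cre. The gap between the groups was narrow, since aMHC_Cre 1 lay close to no_Cre 1, and the gene fell by 0.72 ± 0.17 (SE, adjusted p 0.0448). Without aMHC_Cre 1 it was lower by 0.88 (adjusted p 0.0213). With Dld, which differed by -0.16, these make up the whole dehydrogenase, so 3 of its 4 subunit genes were called and the shared one was not. Through their brightest probe sets, the subunits with the same roles in pyruvate dehydrogenase, Pdha1, Pdhb and Dlat, differed by -0.11, -0.07 and -0.07. Their other probe sets differed by -0.22 for Pdha1, 0.06 for Pdhb, and -0.05 and -0.46 for Dlat.

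Bckdk encodes the kinase that phosphorylates and inactivates the branched-chain dehydrogenase. It measured 9.15, 9.02 and 9.13 without Cre against 9.01, 8.81 and 8.99 with Cre, a difference of -0.16 ± 0.12 (SE, limma adjusted p 0.54), and its other probe set differed by -0.30 ± 0.13 (0.29). Ppm1k, the phosphatase that activates the complex again, differed by -0.31 ± 0.13 (adjusted p 0.271).

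Bcat2, the mitochondrial aminotransferase of the step before, was the member that varied most among the hearts with Cre. It measured 7.61, 7.64 and 7.85 without Cre against 9.14, 9.03 and 7.53 with Cre. In the group with Cre, aMHC_Cre 1 and aMHC_Cre 2 lay above all other hearts and aMHC_Cre 3 below all of them. The difference of 0.87 ± 0.36 (SE) was not called (adjusted p 0.255), and without aMHC_Cre 3 it was 1.39 and was called (adjusted p 0.00141). This gene has 1 probe set, and the cause of the spread was not tested.

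**Figure D2:**
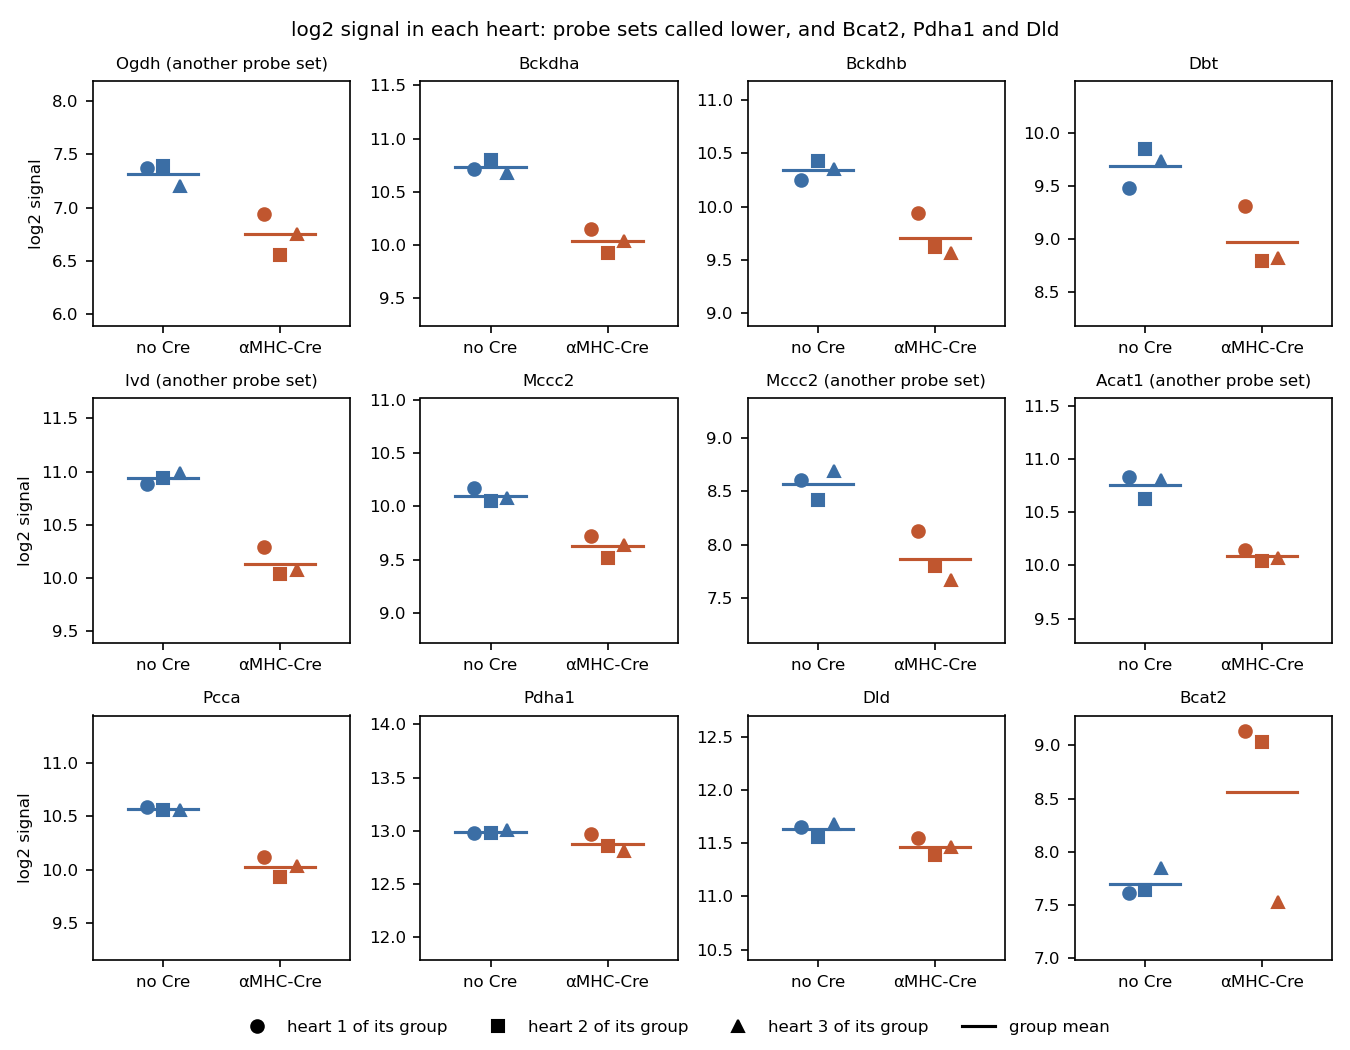
log2 signal (vertical axis, a range of the same width in each panel) in each of the 3 hearts without Cre and 3 with αMHC-Cre, for the 9 probe sets called lower and for Pdha1, Dld and Bcat2. Horizontal bars are group means and marker shapes give the heart number, which was not taken to pair animals. In the 9 called probe sets the groups do not overlap, whereas Bcat2 is high in only aMHC_Cre 1 and aMHC_Cre 2.

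Promoter windows of RefSeq (GRCm38.p6), from 250 bases before to 50 bases after the annotated start, were matched for 31 of the 34 genes, and none was found for Acat1, Dbt or Idh3a. Those below show the decarboxylase genes that both fell, Bckdha and Bckdhb (the upstream of its 2 annotated starts), and the 2 members with the GATA element AGATAA, Mccc2, which fell, and Dld, which was not called. Capitals mark matches to any motif searched on either strand; sequences run 5′ to 3′ on the gene's strand.
Bckdha, chr7:25658712-25659011, minus strand: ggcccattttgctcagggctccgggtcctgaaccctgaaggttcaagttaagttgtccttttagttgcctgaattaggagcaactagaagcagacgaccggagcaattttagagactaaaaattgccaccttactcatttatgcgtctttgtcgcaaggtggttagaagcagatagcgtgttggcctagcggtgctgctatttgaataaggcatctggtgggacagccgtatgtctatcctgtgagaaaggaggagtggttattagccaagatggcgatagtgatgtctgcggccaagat
Bckdhb, chr9:83924887-83925186, plus strand: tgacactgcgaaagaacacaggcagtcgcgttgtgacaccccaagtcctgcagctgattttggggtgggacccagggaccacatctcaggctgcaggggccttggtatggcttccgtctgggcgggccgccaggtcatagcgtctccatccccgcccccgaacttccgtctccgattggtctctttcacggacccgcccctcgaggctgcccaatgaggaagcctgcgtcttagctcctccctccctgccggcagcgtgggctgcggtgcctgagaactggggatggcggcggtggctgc
Mccc2, chr13:100015590-100015889, minus strand: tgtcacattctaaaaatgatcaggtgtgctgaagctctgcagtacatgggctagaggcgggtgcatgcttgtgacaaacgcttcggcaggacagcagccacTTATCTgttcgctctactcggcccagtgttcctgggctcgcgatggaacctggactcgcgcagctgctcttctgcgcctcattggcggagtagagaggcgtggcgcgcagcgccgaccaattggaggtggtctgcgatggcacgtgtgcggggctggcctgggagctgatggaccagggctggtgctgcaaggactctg
Dld, chr12:31351422-31351721, minus strand: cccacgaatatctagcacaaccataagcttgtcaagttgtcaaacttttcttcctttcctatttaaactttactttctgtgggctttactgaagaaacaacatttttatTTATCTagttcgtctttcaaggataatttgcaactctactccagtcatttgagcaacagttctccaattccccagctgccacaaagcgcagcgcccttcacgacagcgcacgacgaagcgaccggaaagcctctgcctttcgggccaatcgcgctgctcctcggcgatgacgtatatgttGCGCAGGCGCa

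The capitals TTATCT in Mccc2 and Dld are AGATAA read on the other strand, and the other match in Dld is the NRF1 element. AGATAA was found in 2 of 31 members (6.45%), against 12.7% of 27025 genes with a window. No other form of the GATA element was searched for, so a window without capitals may still hold one. The NRF1 element, named for a regulator of nuclear genes for mitochondria, was found in Dld, Sucla2, Hibadh and Pccb (12.9%, against 5.19%). The element of estrogen-related receptors, AAGGTCA, was found only in Ogdh (3.23%, against 5.38%), and its longer form TNAAGGTCA, which contains it, in none (against 1.43%). Of the 6 members with a window and a called probe set, 1 held AGATAA, 1 AAGGTCA and 0 the NRF1 element. These are matches of letters, not binding sites. The 40 windows of the members had a median of 59.7% G or C and 18.5 CG pairs, against 52.7% and 7 over all 32851 windows.

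Leucine breakdown continues with Ivd, isovaleryl-CoA dehydrogenase. Its dimmer probe set (1449001_at) measured 10.88, 10.94 and 10.99 without Cre against 10.29, 10.04 and 10.08 with Cre, and fell by 0.80 ± 0.12 (SE, limma adjusted p 0.00608). It was the lowest difference among all member probe sets, and its call was kept in all 6 fits that left out a heart (limma adjusted p 0.0111 to 0.0407) and lost with no filter on dim probe sets (0.0636). The brighter probe set measured 11.08, 11.24 and 11.17 without Cre against 10.85, 10.72 and 10.75 with Cre, also without overlap, but its difference of -0.39 ± 0.11 did not pass (0.0932). The methylcrotonyl-CoA carboxylase that follows has an alpha subunit, Mccc1, and a beta subunit, Mccc2.

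Mccc2 was lower in all 3 probe sets. The brightest (1454840_at) measured 10.17, 10.05 and 10.08 without Cre against 9.72, 9.51 and 9.64 with Cre, and fell by 0.48 ± 0.12 (SE, adjusted p 0.048). The next (1432472_a_at) read 8.61, 8.42 and 8.69 against 8.13, 7.80 and 7.67, and fell by 0.71 ± 0.15 (0.027). The third read 8.39, 8.30 and 8.25 against 8.02, 7.90 and 7.75, a difference of -0.42 ± 0.12 (0.0876). No heart with Cre reached a heart without Cre in any of them, though the call of the brightest was lost whichever heart was left out (0.0805 to 0.187).

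Its partner Mccc1 showed no such separation. The brighter probe set measured 10.76, 10.08 and 10.62 without Cre against 10.76, 10.58 and 10.55 with Cre, a difference of 0.14 ± 0.18 (SE) that was -0.06 without no_Cre 2, and the other differed by -0.15 ± 0.16. Auh, the methylglutaconyl-CoA hydratase, measured 10.02, 9.88 and 10.13 without Cre against 9.69, 9.40 and 9.55 with Cre, a difference of -0.46 ± 0.13 (limma adjusted p 0.0797). Its 3 dimmer tested probe sets differed by -0.20, 0.25 and 0.49. The last measured 5.37, 5.12 and 5.44 without Cre against 5.65, 5.86 and 5.87 with Cre (0.0742), near the lower limit of 5.16 set for testing. Another 2 probe sets of Auh were too dim to test.

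In the valine arm 0 of 3 genes passed (limma; 1 was lower at an unadjusted p under 0.05). Aldh6a1, methylmalonate semialdehyde dehydrogenase, measured 11.54, 11.46 and 11.52 without Cre against 11.25, 10.99 and 10.90 with Cre. The groups did not overlap, with a difference of -0.46 ± 0.13 (SE, adjusted p 0.0788). Hibadh, hydroxyisobutyrate dehydrogenase, measured 12.07, 12.10 and 12.06 without Cre against 11.87, 11.80 and 11.86 with Cre, a separation as small as -0.23 ± 0.11 (adjusted p 0.301). Its other probe set differed by -0.25 ± 0.11. Hibch, the hydroxyisobutyryl-CoA hydrolase, differed by -0.17 ± 0.12 and -0.31 ± 0.19.

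In the isoleucine route and the propionyl-CoA step shared with valine, 1 of 4 genes was called lower, and the difference was below 0 for 4 of 4, against 52.3% of all tested genes. Pcca, the biotin-carrying subunit of propionyl-CoA carboxylase (1451405_at), measured 10.59, 10.56 and 10.56 without Cre against 10.12, 9.93 and 10.03 with Cre. The groups were wide apart relative to their spread, and the gene fell by 0.54 ± 0.11 (SE, limma adjusted p 0.0251). Pccb, the other subunit, measured 10.36, 10.16 and 10.34 without Cre against 10.00, 9.83 and 9.87 with Cre, without overlap, a difference of -0.39 ± 0.12 (adjusted p 0.11).

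Acat1, the thiolase that serves isoleucine breakdown and ketone use, was lower without overlap in each of its 3 probe sets. The called one (1424182_at) measured 10.83, 10.62 and 10.80 without Cre against 10.14, 10.04 and 10.07 with Cre, and fell by 0.67 ± 0.12 (SE, limma adjusted p 0.0115). The brighter ones differed by -0.40 ± 0.11 (0.0786) and -0.41 ± 0.11 (0.0708). Acadsb, the short branched-chain acyl-CoA dehydrogenase, measured 9.64, 9.91 and 9.83 without Cre against 9.68, 9.50 and 9.38 with Cre, which overlap, with a difference of -0.28 ± 0.13 (0.32). The name of its probe set ends in _x_at, which Affymetrix uses for probe sets that may share probes with other transcripts. The brightest probe set of Dlat and dimmer tested ones of Idh3a, Bckdk and Oxct1 have the same ending. Those that stand for Idh3b, Suclg2, Hibch and Hibadh end in _s_at, and whether they match other transcripts was not checked.

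Oxct1, the transferase that activates acetoacetate for oxidation and limits ketone use, did not pass in any of 4 probe sets (limma; 3 were lower at an unadjusted p under 0.05). The brightest measured 12.96, 13.00 and 13.08 without Cre against 12.84, 12.65 and 12.84 with Cre, a difference of -0.23 ± 0.12 (SE, limma adjusted p 0.346). The others differed by -0.33, -0.38 and -0.43 (adjusted p 0.108 to 0.173). Bdh1, which precedes Oxct1 in ketone oxidation, differed by -0.04 ± 0.25.

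Probe sets of 1 gene did not always give the same size. Several were tested for 21 members, with all differences below 0 for 15 and mixed signs for 6 (Auh, Dlst, Idh2, Idh3b, Mccc1 and Pdhb). In 14 of the 15, Mdh2 being the exception, the brightest probe set differed less than the median of the others. Members of the pathways also differed in signal level. Of the 14 members with a mean of 12 or above, mostly of pyruvate dehydrogenase and the TCA cycle, 0 were called, with a median difference of -0.19, and 1.12% of the 268 genes at that level were lower, with a median of -0.04. Of the 13 members with a mean of 9 to 11, mostly branched-chain genes, 5 were called, with a median of -0.39, against 3.1% of 2451 genes and a median of -0.03. Between 11 and 12 there were 6 members, 0 of them called, against 4.17% of 384 genes. What part the level has in the difference between the pathways was not tested.

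**Figure D3:**
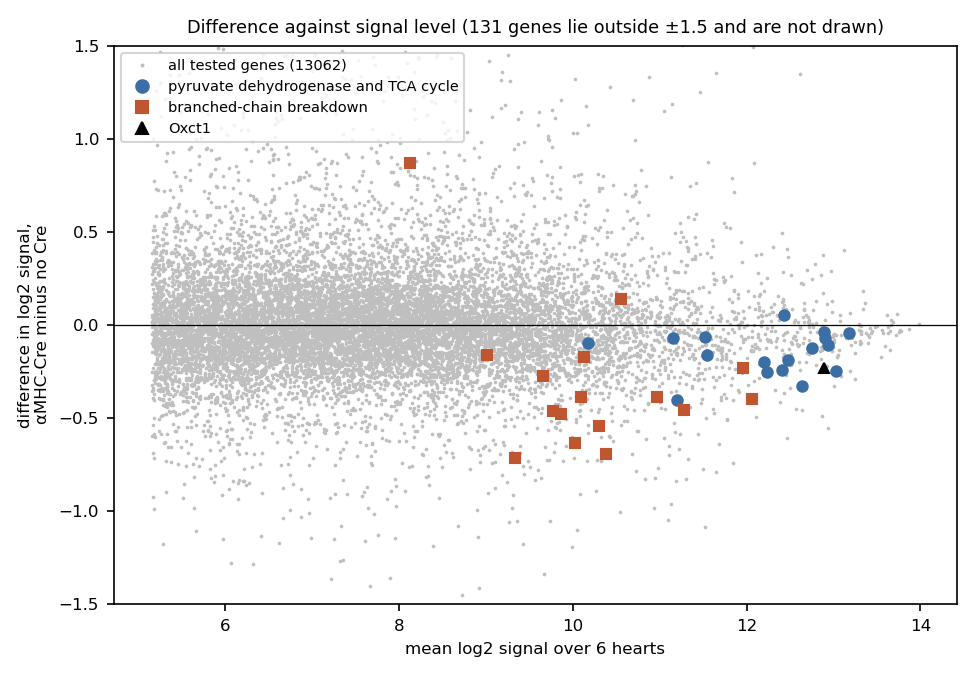
Difference in log2 signal (αMHC-Cre minus no Cre) against the mean log2 signal over the 6 hearts, 1 point per gene through its brightest probe set. Grey points are the 13062 tested genes, of which 131 lie outside the drawn range of 1.5 in either direction. Coloured points are the members: those of branched-chain breakdown lie mostly between 9 and 12 and below 0, and those of pyruvate dehydrogenase and the TCA cycle mostly above 11 and nearer to 0.

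The hearts with Cre were not alike, nor were those without. Of the 34 genes, 28 were highest of the group in aMHC_Cre 1, 6 in aMHC_Cre 3 and 0 in aMHC_Cre 2, against 46.9%, 35.9% and 17.2% of all tested genes. The lowest of the group was aMHC_Cre 2 for 24 genes, aMHC_Cre 3 for 8 and aMHC_Cre 1 for 2, against 47.8%, 28.5% and 23.7%. Without Cre the highest was no_Cre 1 for 11 genes, no_Cre 2 for 7 and no_Cre 3 for 16, against 25%, 25.9% and 49.1%. The lowest was no_Cre 1 for 13, no_Cre 2 for 19 and no_Cre 3 for 2, against 32.5%, 47.4% and 20.1%. The mean over the 16 branched-chain genes was 10.22 in aMHC_Cre 1, 10.01 in aMHC_Cre 2 and 9.96 in aMHC_Cre 3, and 10.34 to 10.42 without Cre. Without Bcat2, a choice made after seeing the data, it was 10.29, 10.08 and 10.13, so aMHC_Cre 3 was the lowest only with that gene included, and 10.53 to 10.59 without Cre. For the 17 genes of pyruvate dehydrogenase and the TCA cycle the means were 12.19, 12.09 and 12.14, and 12.23 to 12.34 without Cre. The mean over 7 fibroblast markers was 10.59 in aMHC_Cre 1, 10.65 in aMHC_Cre 2 and 10.89 in aMHC_Cre 3.

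Of 44 other symbols of these pathways, such as the regulators of pyruvate dehydrogenase and the steps not among the 34 genes, 38 were tested, with 1 lower and 0 higher through the brightest probe set (limma; 15 lower and 1 higher at an unadjusted p under 0.05). Their median was -0.15. Pdp2, a phosphatase that activates pyruvate dehydrogenase, measured 6.65, 6.58 and 6.48 without Cre against 5.60, 5.72 and 5.89 with Cre, and fell by 0.83 ± 0.12 (SE, adjusted p 0.0059). The groups were far apart. Its counterpart Pdp1 differed by -0.42 ± 0.15 (adjusted p 0.157). Of the opposing kinases, Pdk4 measured 11.65, 10.85 and 11.62 without Cre against 11.97, 11.77 and 10.62 with Cre, which overlap, a difference of 0.08 ± 0.35. Pdk3 differed by 1.00 ± 0.26 (0.0593), Pdk2 by -0.38 ± 0.11 (0.103) and Pdk1 by 0.07 ± 0.11.

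Dimmer probe sets of another pair of these genes were called. Of 3 tested probe sets of Me2, a malic enzyme, the middle one measured 6.19, 5.92 and 6.00 without Cre against 6.82, 6.79 and 7.00 with Cre, and rose by 0.83 ± 0.13 (SE, limma adjusted p 0.0065), whereas its brightest differed by 0.01 ± 0.13. Of 5 of Mdh1, the cytosolic malate dehydrogenase, a dim one read 8.00, 8.04 and 8.02 against 7.65, 7.37 and 7.43 and fell by 0.53 ± 0.12 (0.0357), while the brightest differed by -0.07 ± 0.11. Klf15, a transcription factor known to activate genes of branched-chain breakdown in the heart, measured 9.63, 9.85 and 9.69 without Cre against 9.44, 9.13 and 8.64 with Cre. Its groups did not overlap, and the difference of -0.65 ± 0.19 did not pass (0.0971).

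Among neighbouring mitochondrial functions, the differences of beta-oxidation genes were closest in size to those of branched-chain breakdown. Of 17 tested beta-oxidation genes 4 were lower (23.5%) and 17 were below 0, with a median of -0.37; Eci1 fell by 0.74 ± 0.12 (SE, limma adjusted p 0.00745) and Cpt2 by 0.66 ± 0.12 (0.0126). Of 19 respiratory chain genes 1 was lower, Cox7a1, with a median of -0.10, which is near that of the pyruvate dehydrogenase and TCA cycle genes. For 16 genes of mitochondrial import, chaperones and porins the median was -0.12, and 0 were called (limma; 1 at an unadjusted p under 0.05). These lists were not tested against each other.

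Of 11 regulators of mitochondrial genes 0 were called through the brightest probe set (limma; 2 were lower at an unadjusted p under 0.05). Ppargc1a, the coactivator of mitochondrial biogenesis, differed by -0.10 ± 0.11 (SE) and Esrra, an estrogen-related receptor, by -0.08 ± 0.12. Ppara, the fatty acid receptor, singled out after its values were seen, differed by -0.30 ± 0.16 through its brightest probe set, while another measured 8.87, 9.07 and 9.07 without Cre against 8.42, 8.14 and 8.41 with Cre and fell by 0.68 ± 0.13 (limma adjusted p 0.0175).

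**Figure D4:**
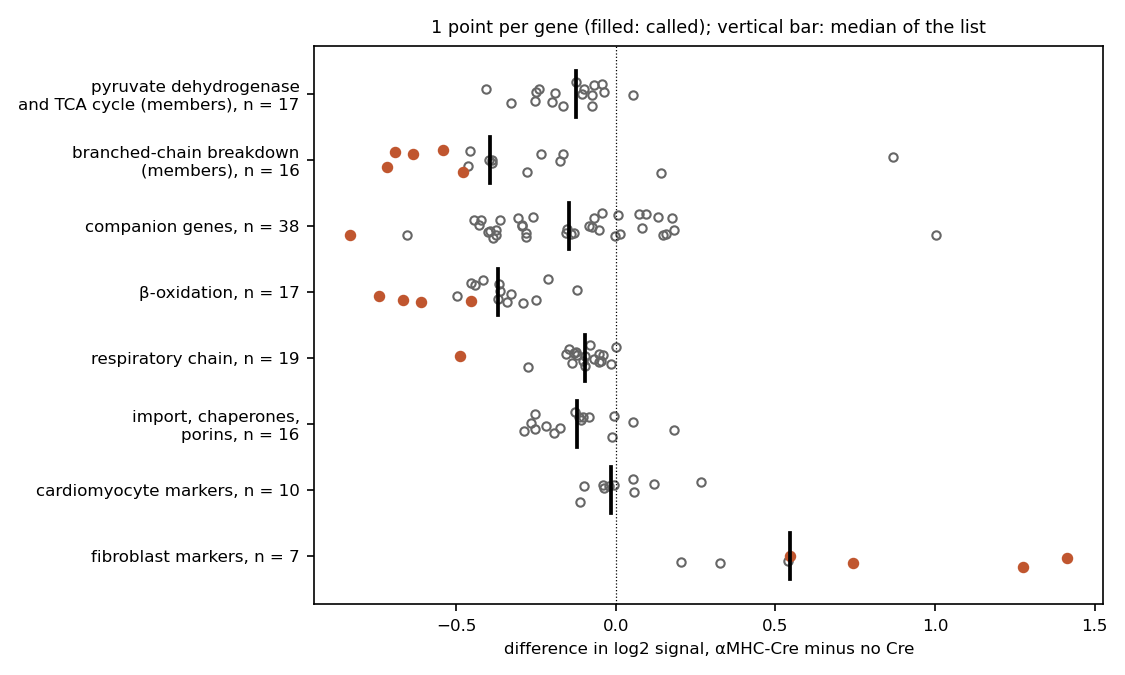
Difference in log2 signal (αMHC-Cre minus no Cre, horizontal axis) for each gene of 8 lists, with n the number of tested genes; filled points passed the test and the vertical bar is the median. The medians are -0.12 for pyruvate dehydrogenase and the TCA cycle, -0.39 for branched-chain breakdown, -0.37 for beta-oxidation, -0.10 for the respiratory chain, -0.01 for cardiomyocyte markers and 0.55 for fibroblast markers.

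Because the RNA is from whole tissue, fewer cells of a type and less RNA per cell cannot be told apart. Of 10 cardiomyocyte markers 0 were called (limma; 0 also at an unadjusted p under 0.05), with a median of -0.01 and levels near the array maximum. Of 7 fibroblast markers 4 rose, among them Col1a1 by 1.41 ± 0.21 (SE, limma adjusted p 0.00642) and Col1a2 by 1.28 ± 0.15 (0.00182), which encode collagen chains, and the mean over the list was 9.92 to 10.04 without Cre and 10.59 to 10.89 with Cre. Endothelial, macrophage, smooth muscle and red cell markers had medians of 0.12, 0.06, 0.02 and 0.25 with 0 calls among 6, 5, 5 and 2 tested genes (limma; 1 endothelial and 1 smooth muscle gene were higher at an unadjusted p under 0.05). The table has no detection calls, so no marker can be given as absent. The part of cell composition in the lower branched-chain genes was not tested.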

How the data were processed

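RNA of 6 mouse heart apices was measured on 1 array each. The authors deposited 1 log2 signal per probe set and array, summarised with PLIER, per the submitters' processing notes; no source used here gives its settings or says whether arrays were normalized to each other. Base 2 was read from the array maxima of 13.97 to 14.00. Of 45101 probe sets, 64 controls and the 40% with the lowest mean (18015, under 5.16) were left out. A two-sided limma test (version 3.58.1, R 4.3.3, lmFit then eBayes) without covariates or further normalization set one group against the other, adjusted by Benjamini-Hochberg over 27022 probe sets. The number of arrays limits the precision.

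The platform annotation gives a single symbol for 34945 probe sets, more than 1 for 932 and no symbol for 9160; names were used only from the first kind. A gene stands through its brightest probe set. Lists received counts, medians and mean levels per heart, with no test. Values in each heart are given for members that were called, whose probe sets disagree, or, in a step without calls, that differ most. Members, lists and tests were chosen with earlier results of these data known. A planned comparison of protein sequences was not made. The procedure was tested on simulated data with independent noise and with changes larger than those of the called members. That test does not cover changes of the size reported here. The alternatives are given in the closing section.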

Additional observations from a re-analysis of the deposited data

How the results depend on the processing

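The 16 alternatives left the median difference of the 34 genes between -0.27 and -0.19, but the counts of calls moved. Instead of 5 genes lower, quantile normalization gave 8, no filter 0, a 60% filter 8, trended and robust variances 14, 64 added to the unlogged signal 12 and the mean of a gene's probe sets 9. Leaving out 1 heart gave 0 to 4 lower and 0 to 1 higher, the latter being Bcat2. For member probe sets, 9 lower became 14, 0, 15, 25 and 22 under the first 5 of these, and 1 to 8 without a heart. Over all probe sets, 1412 calls became 275 with no filter and 600 to 1075 without a heart. With the replicate number as a block the counts were 1 gene (Bckdha), 3 member probe sets and 909 probe sets. Deviations of same-numbered hearts correlated at -0.06, 0.21 and -0.19, and not every heart correlated best with its own number. The numbers were therefore not taken as pairs, though so few hearts cannot exclude pairing, which the labels do not state. Median centring, array weights and 16 added kept the counts within 1.5 times. Without a heart, Dlst ranged from -0.2018 to 0.0099 (above 0 without no_Cre 1), Mdh2 from -0.092 to 0.0108 (above 0 without aMHC_Cre 2) and Mccc1 from -0.0624 (without no_Cre 2) to 0.2753. The mean of the probe sets turned Mccc1 to -0.0026 and Auh to 0.0179, none of these 4 genes being called as reported. The cause was not tested. No detection calls were used, so what dim probe sets measure is not known.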
